A study of Mus musculus with 2 samples.

Results

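Iron is carried in body fluids bound to transferrin, taken up through the transferrin receptor, reduced in endosomes and passed to the cytosol by divalent metal transporters, and either used, stored in ferritin or returned to the outside by ferroportin. Iron regulatory proteins bind hairpins in several of these transcripts, so that low iron stabilises the receptor transcript and blocks ferritin translation. Several iron genes are also part of the inflammatory response, in which C/EBP factors act, and chondrogenic cultures are fed transferrin with insulin and selenite. The 10 genes described here cover uptake (Tfrc, Trf, Slc11a2, Slc39a14, Steap4), storage (Fth1, Ftl1), export (Slc40a1, Cp) and the release of iron from heme (Hmox1). They were chosen by symbol and found on the array as non-control spots carrying a RefSeq transcript accession of the gene. All 10 had a spot, with 25 spots of 16 probes, among 20657 named genes with a probe.

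The cells were ATDC5, a mouse chondrogenic cell line, in 2 stable lines with a doxycycline-inducible transgene. One line expressed GFP and served as control. The other expressed A-CEBP, a dominant-negative inhibitor that dimerises with C/EBP factors so that they no longer bind DNA. Both lines received 2 µg/mL doxycycline for 2 days and then ITS (insulin, transferrin and selenite) for 3 weeks, and the sources used here do not say whether either line was a single clone. Each group held 1 sample on 1 one-colour Agilent array, so no difference could be checked against replicates and no p-value was computed. What A-CEBP did, and what else set these lines or dishes apart, cannot be told apart. In such bulk RNA, fewer cells of a type and less RNA per cell cannot be told apart either.

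Values are given as processed signal in intensity units and as log2 of that signal minus the 75th percentile of the array, which was 872 units for GFP and 906 units for A-CEBP, so that 0 marks that percentile. Differences are A-CEBP minus GFP on this log2 scale, and a gene counted as lower or higher when at least 2-fold apart. The mark for detection was the scanner software's "well above background", carried by 54.6% of 59305 spots in GFP and 58.0% in A-CEBP, and no spot was saturated. The SD of the difference was 0.11 between replicate spots of a probe (291 probes) and 0.19 between probes of a gene (3601 genes). These errors cover the measurement only. Levels of different genes are not compared, because probes differ in how brightly they report. Summed levels of markers, given further below, are weighted to the brightest probes and serve only to set the arrays side by side. Of the 6 chondrocyte markers looked up, 5 were well above background on both arrays, and Matn3 was below it on both. All 5 had positive differences, Acan of 1.30, Col10a1 of 0.97, Col9a1 of 0.63, Sox9 of 0.61 and Col2a1 of 0.43. The other probe of Col9a1 differed by 0.19.

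The iron genes did not differ as one group. Steap4, an iron and copper reductase of the cell surface and endosomes, gave a clear signal in the GFP sample and none above background in the A-CEBP sample. Cp, which encodes the copper-containing ferroxidase ceruloplasmin, was 2.40-fold lower, and Slc39a14, a carrier of zinc and of iron not bound to transferrin, was 1.96-fold lower, just inside the 2-fold rule. The iron carrier gene Slc11a2 and the receptor gene Tfrc had smaller negative differences, ferroportin (Slc40a1) a positive one, and the ferritin genes, Trf and Hmox1 lay close to 0. Among the 9 genes measured on both arrays, 1 was at least 2-fold lower and 0 were higher, against 1.7% lower and 1.26% higher among all 13860 genes so measured. Of the 9 differences 7 were negative and 2 positive, where 40.9% of all genes so measured were negative. The median of the 9 was -0.18 and that of all genes 0.046. With scaling on spike-in spots, which moved the median of all genes to 0.27, the median of the 9 turned to 0.041. Trf, Fth1 and Hmox1 turned positive with that scaling.

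**Figure D1:**
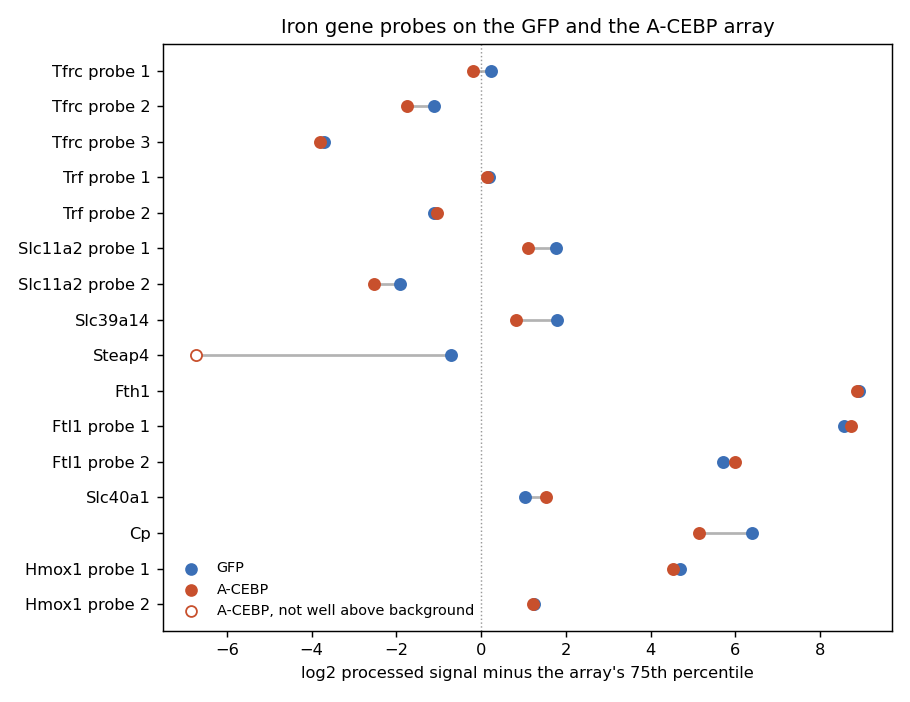
Level of each probe of the 10 iron genes on the GFP array (blue) and the A-CEBP array (orange), as log2 processed signal minus the 75th percentile of the array. Probes of a gene are numbered by their GFP signal, and the open circle marks the Steap4 spot that was not well above background; the lines of Steap4 (from -0.72 to -6.73), Cp (from 6.40 to 5.13) and Slc39a14 (from 1.78 to 0.81) are the longest.

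Steap4 belongs to a family of metalloreductases that turn ferric into ferrous iron so that carriers can move it. Its single spot read 531 units in GFP, with a scanner error of 53.6 units, and 8.55 units in A-CEBP, with an error of 6.05 units. The pixel median of that spot was 599 units over a local background of 57 in GFP and 86 units over a local background of 40 in A-CEBP. The gene was thus detected in GFP alone, and its A-CEBP reading could not be told apart from background. Set against the dimmest probe that still carried the detection mark on the A-CEBP array (-5.19), Steap4 was at least 22.2-fold lower. The ratio of the readings themselves was 64.4, whose size is uncertain. With normexp background correction the bound fell to at least 6.63-fold. Of 173 genes seen in the GFP sample only, 98 had a bound of at least 2-fold (56.6%), and the bound of Steap4 was the 14th largest of them.

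The 250 bases before the RefSeq start of Steap4 are shown because it had the largest difference of the 10 genes and because A-CEBP acts on factors that bind the element searched for. They lie at chr5:7960222-7960471 on the plus strand of GRCm38.p6, and the capitals mark the match to TTGCNNAA, a reduced form of the C/EBP element.
Steap4: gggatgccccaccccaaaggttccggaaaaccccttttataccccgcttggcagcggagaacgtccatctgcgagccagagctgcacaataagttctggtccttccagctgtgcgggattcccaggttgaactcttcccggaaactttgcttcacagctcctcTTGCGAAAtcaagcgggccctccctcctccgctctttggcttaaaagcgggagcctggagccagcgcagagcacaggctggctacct
The match began 87 bases before the start. On both strands, the same letters occurred in 10.8% of all 32851 promoter windows of 300 bases in the RefSeq table, so that a match alone is common. A match is a description of the letters and does not show binding.

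Among the other uptake genes the differences were graded. Slc39a14 encodes ZIP14, which brings in iron not bound to transferrin and is known to rise in the acute phase. Its single spot read 3004 units in GFP and 1590 units in A-CEBP, a log2 difference of -0.97 with a scanner error of 0.20. That placed it 248th from the lowest of 13860 genes. With the authors' deposited values it passed the 2-fold rule, at -1.02, and with spike-in scaling it was at -0.75. Slc11a2 encodes DMT1, which moves ferrous iron out of the endosome. Its brighter probe read 2942 units in GFP and 1949 units in A-CEBP, a difference of -0.65. Its dimmer probe read 231 units and 158 units, a difference of -0.60, so both probes placed Slc11a2 about equally low.

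Tfrc encodes the transferrin receptor, whose transcript carries the hairpins bound by iron regulatory proteins. The array holds 10 spots of 1 Tfrc probe, of which 8 were kept and 2 were left out as marked outliers. The 8 spots read between 970 and 1137 units in GFP (median 1025) and between 716 and 822 units in A-CEBP (median 799), so that the spots of the arrays did not overlap. The mean difference was -0.43 ± 0.12 (SD over 8 spots of the same hybridised samples), or 1.35-fold lower, and the 2 spots left out differed by -0.38 and -0.35. The other probes differed by -0.63 (402 and 269 units) and by -0.09 (67.1 and 65.2 units), the latter a dim probe with a scanner error of 0.28. Of all genes, 14.3% lay at least as far from 0 as Tfrc, and with spike-in scaling its difference shrank to -0.21. In the main setting Tfrc was thus lower in all 10 spots of the repeated probe and in the probe at -0.63, while the dim probe differed by less than its scanner error. Many other genes reached the difference of Tfrc.

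**Figure D2:**
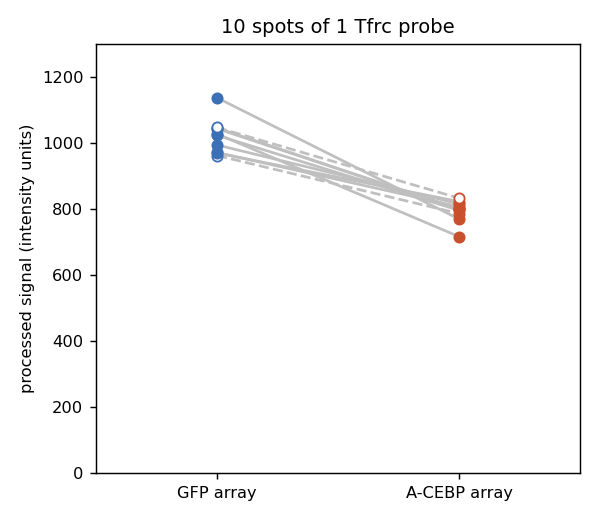
Processed signal in intensity units of the 10 spots of 1 Tfrc probe on the GFP and the A-CEBP array, with a line joining each spot position. Filled circles are the 8 spots kept and open circles with dashed lines the 2 marked as outliers; every spot on the A-CEBP array, 716 to 832 units, lies below every spot on the GFP array, 962 to 1137 units.

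Trf encodes transferrin itself, the protein that the ITS supplement also supplied to both cultures; the array reads the cells' own transcript. Its brighter probe read 993 units in GFP and 998 units in A-CEBP, a difference of -0.046. Its other probe read 400.4 units and 441 units, a difference of 0.085. The probes thus lay on opposite sides of 0, both nearer to 0 than the SD between probes of a gene.

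The ferritin subunits store iron in a shared shell, the heavy chain (Fth1) carrying the ferroxidase site and the light chain (Ftl1) helping the mineral core to form. Fth1 read 423859 units in GFP and 422169 units in A-CEBP, a difference of -0.060. The brighter probe of Ftl1 read 327485 units in GFP and 384933 units in A-CEBP, a difference of 0.18. Its other probe read 45366 units and 57226 units, a difference of 0.28. Neither ferritin gene was near the 2-fold rule, and Fth1 turned to 0.16 with spike-in scaling. Both genes have near-identical copies in the genome whose transcripts could share signal, so the single values are uncertain. Ferritin is regulated mainly in translation, which an RNA array does not measure.

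On the export side the genes lay on opposite sides of 0. Slc40a1 encodes ferroportin, the iron exporter of vertebrate cells. Its single spot read 1794 units in GFP and 2600 units in A-CEBP, a difference of 0.48, or 1.40-fold higher. That was the 939th highest of 13860 genes, and under the 10 alternative settings the difference stayed between 0.43 and 0.70. Cp oxidises the ferrous iron that ferroportin releases so that transferrin can bind it, and is an acute phase gene. Its single spot read 73608 units in GFP and 31782 units in A-CEBP, a difference of -1.27 with a scanner error of 0.20. It was the 164th lowest of all genes and passed the 2-fold rule under all 10 alternatives, between -1.35 and -1.05. The exporter and its partner oxidase thus differed in sign. The other oxidases that can serve ferroportin, Heph and Hephl1, were not well above background in either sample.

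**Figure D3:**
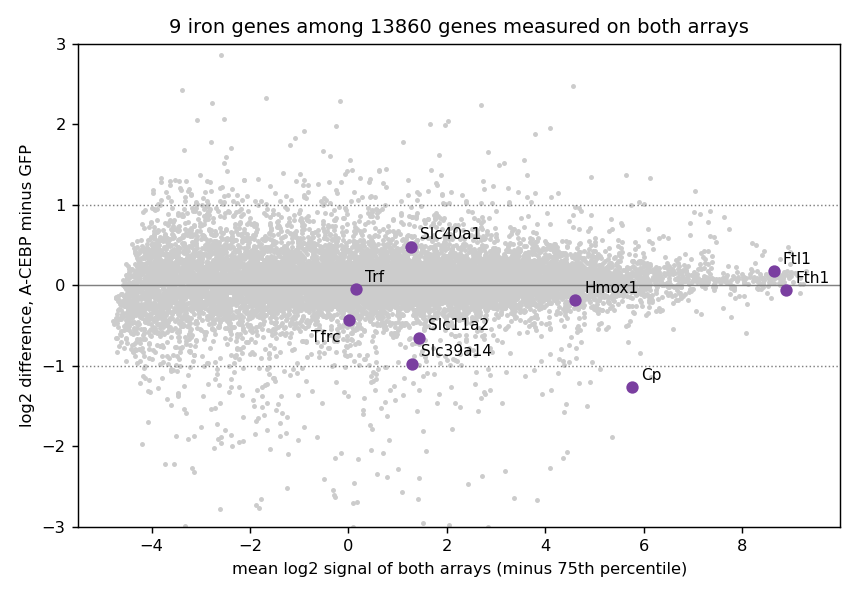
Log2 difference (A-CEBP minus GFP) of 13860 genes measured on both arrays (grey) against their mean log2 signal, with the 9 iron genes measured on both arrays in purple and the 2-fold rule as dotted lines. Cp, at -1.27, lies past the rule and Slc39a14, at -0.97, just inside it, while Fth1, Ftl1, Trf and Hmox1 lie within 0.18 of 0; 26 genes fall outside the axis limits of -3 and 3.

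Promoter windows of the RefSeq table (250 bases before to 50 after a start) were found for 5 of the 10 genes, Steap4, Cp, Tfrc, Fth1 and Ftl1, with 8 windows in all. The letters TTGCNNAA occurred in 3 of the 8 windows. Besides Steap4 these were 1 of 2 windows of Cp, which was lower in A-CEBP, and 1 of 2 windows of Fth1, which was not. The stretches are shown on the plus strand, which is the gene strand, with the match in capitals, to set a lower gene beside one near 0. The match in Cp (chr3:19957168-19957197) and the second match in Fth1 (chr19:9982577-9982606) read in the opposite direction to the gene, and the first in Fth1 (chr19:9982506-9982535) in the same direction.
Cp: attagttactcTTTTGCAAcattaaattgt
Fth1 first: aggcaccgctcTTGCAGAAgctcagagccc
Fth1 second: gccctgcgggtTTGGGCAAcacgcccacag
The matches began 70 bases before the start in Cp, and 129 and 58 bases before it in Fth1. The NF-kB motif, searched as GGGA followed after 4 bases by CC, occurred in the same 3 windows and in 20.7% of all windows, and overlapped no TTGCNNAA match. The hypoxia response core ACGTG occurred at 1 position shared by the overlapping windows of Tfrc, and in 19.6% of all windows. The antioxidant response element TGACNNNGC was in none of the 8 windows and in 12.4% of all. The iron-responsive loop CAGTGN, searched on the sense strand of the first 50 transcribed bases, was in none of the 8 and in 7.08% of all; this says only that these letters are not in these windows.

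Hmox1 encodes heme oxygenase 1, which opens the heme ring and frees its iron, and is induced by heme and oxidative stress. Its brighter probe read 22730 units in GFP and 20838 units in A-CEBP, a difference of -0.18. Its other probe read 2059 units and 2127 units, a difference of -0.0069. With spike-in scaling the brighter probe turned to 0.041. Its regulators lay within 2-fold as well: the repressor gene Bach1 differed by -0.070 (0.15 with spike-in scaling) and the activator gene Nfe2l2 by -0.40.

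**Figure D4:**
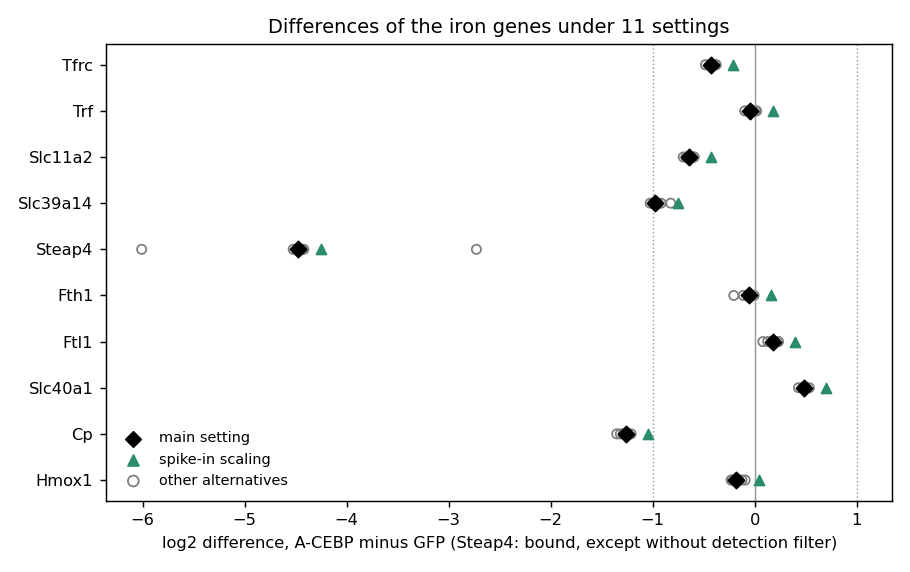
Log2 difference (A-CEBP minus GFP) of the 10 iron genes in the main setting (black diamonds), with spike-in scaling (green triangles) and under the other alternatives (open circles), with dotted lines at the 2-fold rule. Steap4 is drawn at its bound (-4.47 in the main setting), except for its reading without the detection filter (-6.01), and its rightmost point (-2.73) is normexp background; Trf, Fth1 and Hmox1 cross 0 with spike-in scaling.

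A wider list of iron and heme genes was examined by role. Beside the 10 genes it held 69 with a probe, of which 60 were measured on both arrays, with a median of -0.0017. Among all genes so measured, 1.7% were lower and 1.26% higher by at least 2-fold, so that 0 in a short list says little. Of the 60, 2 were lower and 1 higher. The 2 lower ones were Lcn2, an iron-siderophore binding protein of the acute phase (-6.96), and Hp, which encodes the hemoglobin scavenger haptoglobin (-4.95). The 1 higher was Flvcr2, described as a carrier of heme and of choline, which was at 0.064 in GFP and 1.34 in A-CEBP (1.27). Apart from these and Steap4 and Cp, every gene of the wider list measured on both arrays stayed within 2-fold in the main setting.

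Among the 10 other uptake genes measured on both arrays, 6 differences were negative and 4 positive, where 40.9% of all genes were negative. The relatives of Steap4 differed far less than it did: Steap1 by -0.37, Steap2 by -0.12 (-0.46 for its other detected probe) and Steap3 by 0.0063 (-0.025). Slc39a8, the closest relative of Slc39a14, differed by -0.48, and Scara5, a ferritin receptor, by -0.49 (-0.22 for its other probe). The ferric reductase gene Cybrd1 was at -3.29 in GFP and -2.37 in A-CEBP (0.92), with its other probe at 0.077, and the lipocalin receptor gene Slc22a17 differed by 0.47. These 7 genes were picked with their values in view. Steap1, Steap2 and Slc39a8 thus lay below 0 and Steap3 near it, with none past the rule. Other genes of the Slc39 family, given further below, lay on both sides of 0.

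Of 9 regulators of iron balance measured on both arrays, 0 were 2-fold apart, with differences from -0.43 to 0.54 and a median of -0.070. The genes of the iron regulatory proteins differed by 0.25 (Aco1) and -0.063 (Ireb2), and that of Fbxl5, the ligase subunit that turns over these proteins when iron is ample, by -0.43. Ireb2 turned to 0.16 with spike-in scaling. Bmp6, an inducer of hepcidin, differed by 0.46 and Neo1 by 0.54. The hepcidin gene Hamp itself was not well above background in either sample.

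In storage, the iron chaperone gene Pcbp2 differed by 0.039 (0.14 for its other probe) and the ferritin receptor of autophagy, Ncoa4, by 0.13. Pcbp2 turned to -0.046 with quantile normalization. No gene of heme synthesis (8 measured, median -0.017) was 2-fold apart, and Cpox, an enzyme of the later steps, differed by 0.22. Of 19 genes of mitochondrial iron and iron-sulfur clusters, 0 were 2-fold apart and 13 differences were positive (median 0.081), a share near the 59.1% of all genes. The exception in size was Slc25a37, which encodes the mitochondrial iron importer mitoferrin 1, at -0.99 with its other probe at -0.82, just inside the rule. It passed the rule with quantile normalization (-1.02), with the authors' deposited values (-1.04) and with the percentile taken over detected probes (-1.001). Isca1, an assembly factor, differed by 0.26, with its other probe at 0.059.

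**Figure D5:**
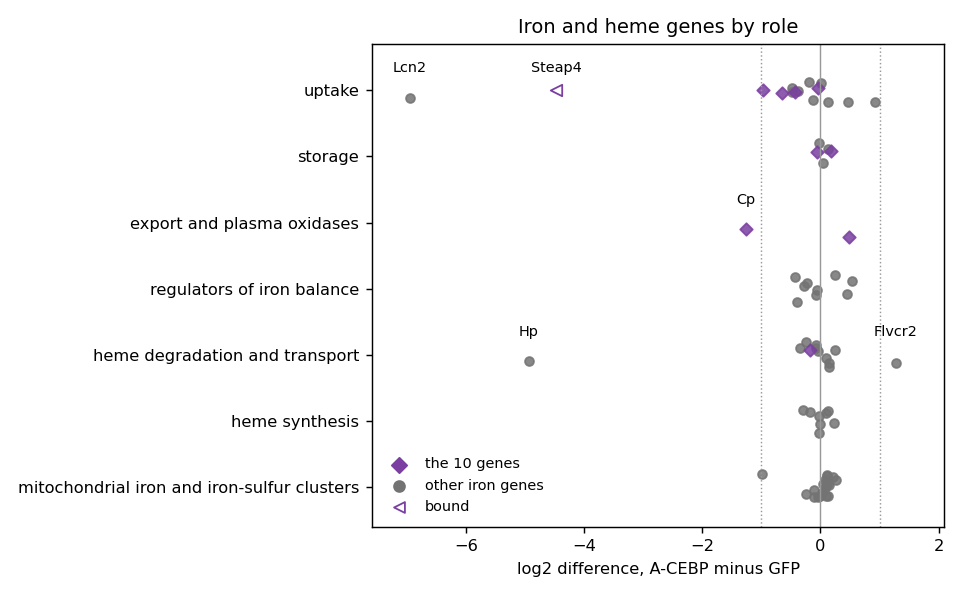
Log2 difference (A-CEBP minus GFP) of the iron and heme genes by role, with the 10 genes in purple, the others in grey, the 2-fold rule as dotted lines and the bound of Steap4 as an open triangle. Genes past the rule are named, namely Lcn2 (-6.96), Hp (-4.95), Steap4 (bound -4.47), Cp (-1.27) and Flvcr2 (1.27); all 19 mitochondrial genes and all 9 regulators lie inside it.

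Markers of other cells that handle iron were looked up beside these values. Of 8 macrophage markers with a probe, 3 were well above background in GFP and 4 in A-CEBP. The 8 had a summed level of 23.6 in GFP and 27.2 in A-CEBP, in multiples of the 75th percentile. Most of that sum was Itgam (21.6 and 25.4), which differed by 0.23, while Csf1r differed by -0.14 and Cd5l by 0.20. Over all 3 probes, detected or not, the differences ran from -0.57 to 0.23 for Itgam and from -0.42 to 0.36 for Csf1r. Ptprc, Cd163 and Vsig4 were below background on both arrays. A single spot of the macrophage marker Adgre1 read 898 units in GFP and 21.4 units in A-CEBP, but was marked as non-uniform and left out, and its other spot was below background on both arrays. Of 8 erythroid markers 4 were well above background on each array (summed level 0.53 and 0.68), with Hbb-bs and Hbb-bt below it; Klf1 was 2.04-fold higher in A-CEBP and Epor differed by 0.53. Of 5 hepatocyte markers 1 was well above background on each array (0.092 and 0.10), namely Serpina1a, which differed by -0.49, with Alb, Apoa1 and Ttr below it. Of 5 adipocyte markers 1 was well above background in GFP and 3 in A-CEBP (0.14 and 0.17), all dim. The summed level of the chondrocyte markers was 329 in GFP and 461 in A-CEBP, of which Col2a1 was 299 and 402. The part of these markers in the differences of the iron genes was not tested.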

How the data were processed

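RNA of 1 GFP and 1 A-CEBP culture was labelled with Cy3 from 0.1 µg total RNA, per the labels' protocols. The deposited files give a linear intensity per spot, from which Agilent Feature Extraction 10.10.1.1 had removed background and spatial trends, per the file headers and the submitters' processing notes. The authors' deposited table holds the same intensity multiplied by 1.24 (GFP) and 1.15 (A-CEBP), with column medians of 70.9 and 67.4; it is linear and uncentred, and the basis of these constants is not given in the sources used. Both arrays came from 1 slide and 1 scan, per the file headers.

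From these, log2 of the processed signal minus the 75th percentile of the non-control spots was computed (Python 3.11.15, pandas 2.3.3; limma 3.58.1 for normexp, offset 50). Spots flagged as outliers (non-uniform or against their population) on either array, 293 in all, were left out and replicate spots averaged. A gene was represented by its brightest probe well above background on both arrays; one seen on 1 array only got a bound against the higher of the dim reading and the lowest level of any probe well above background on that array. Of 55671 probes, 27229 matched 1 gene of the RefSeq table of GRCm38.p6, which served for names, not coordinates. The procedure was tested on simulated data with planted differences well past the 2-fold rule. Those data held no gene detected on 1 array only, so the bounds were not tested, nor were planted differences near the rule. All 10 genes are named, with the genes past the rule in each role, or else the 2 farthest from 0, and 5 regulators. The members and lists were chosen with earlier results of these data known. With 1 array per group, the number of arrays limits the precision. Alternatives were scaling (among them on the E1A spike-in control spots, whose RNA the labels do not mention), background, detection filter, probe choice and outlier spots.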

Additional observations from a re-analysis of the deposited data

How the results depend on the processing

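Cp kept its direction and its place past the 2-fold rule under all 10 alternatives, and Steap4 did so with bounds of at least 6.63-fold to at least 23.0-fold under the 9 that keep the detection filter. The number of the 10 genes at least 2-fold lower rose from 1 to 2 with the authors' deposited table (Slc39a14) and without the detection filter (Steap4, at its reading). With spike-in scaling the median of the 9 genes measured on both arrays turned to 0.041 and that of the wider list from -0.025 to 0.20, the median of all genes being 0.27 there. In the wider list, members included, the number lower rose from 3 to 5 with the authors' deposited table and 6 without the detection filter, and the number higher from 1 to 2 with spike-in scaling and 2 without the detection filter. Among all genes, 236 were lower and 174 higher. These counts became 883 and 603 without the detection filter, the number higher became 347 with spike-in scaling, and it became 97 with normexp background. The normexp setting was chosen after seeing the data, because the planned one needs the mean signal of each spot, which was not available here. The median signal was used in its place. The signal over background limits Steap4, whose A-CEBP level has only an upper limit. No paired analysis was possible because each group held 1 sample, and for the same reason no replicate could be left out.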

Other observations

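Carriers of other metals were looked up because Slc39a14 also moves zinc and Cp and Steap4 handle copper. These lists were chosen after the iron values had been seen. Among all genes, 1.7% were lower and 1.26% higher by at least 2-fold, so that 0 in lists this short, here and below, says little. Of 9 copper genes measured on both arrays, 0 were 2-fold apart (median 0.057), the farthest being Sco2, an assembly factor of cytochrome oxidase, at -0.33, with the copper importer gene Slc31a1 at 0.26 and the chaperone gene Atox1, which delivers copper to the secretory pathway where ceruloplasmin is loaded, at 0.20. Of 10 zinc importer genes of the Slc39 family other than Slc39a14 and Slc39a8, 0 were 2-fold apart (median 0.019), the farthest being Slc39a13 at 0.35. Slc39a14 itself was at -0.97 and Slc39a8 at -0.48. Of 7 zinc exporter genes of the Slc30 family, 0 were 2-fold apart (median 0.0025).

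Of 9 genes linked to iron-dependent lipid peroxidation, 0 were 2-fold apart (median -0.081). Acsl4, which activates long-chain polyunsaturated fatty acids, was at 3.01 in GFP and 2.15 in A-CEBP, a difference of -0.86 and the farthest of the list. The glutathione peroxidase gene Gpx4 differed by 0.0020 and the cystine carrier gene Slc7a11 by -0.13.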
